A study of Stylophora pistillata with 18 samples.

Results

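In the genome of the stony coral Stylophora pistillata, 7 stretches of neighbouring gene models held 46 models, of which 45 were called higher in the presence of each of a pair of cyclic dinucleotides and 1 was too low to test. The stretches are called clusters A to G here, and a model is named by its cluster and its place along the scaffold, so that A1 is the first model of cluster A. Members were all models of the deposited annotation that lie inside the 7 spans, 46 of 29419 models in all. The spans had been chosen by measured values, as runs of neighbours called higher with both compounds in these same libraries. Levels with a compound against seawater are therefore given below as a description: their edgeR calls and adjusted p-values are printed to describe the members and support no statement about them. Comparisons between the compounds and between the colonies were not themselves used in the choice and are tested. They are not fully free of it. A choice by calls with both compounds, over both colonies, may disfavour models whose response differs strongly between compounds or colonies.

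Adult wild-type colonies of the coral had been exposed for 18 h to 250 µM 3'3'-cUA, to 250 µM 2'3'-cGAMP, or to seawater alone. Each treatment had 6 RNA sequencing libraries, made from 3 specimens of each of 2 colonies. The 18 libraries are named by compound, colony and specimen, so that cUA 2A is specimen A of colony 2 with 3'3'-cUA. Since only 2 colonies were used, the p-values below speak for specimens of these colonies and not for the species.

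Cyclic dinucleotides are small second messengers made by cGAS and its relatives, the cGAS-like receptors, when these enzymes meet foreign nucleic acid or other signs of infection. In vertebrates 2'3'-cGAMP binds the receptor STING, which switches on antiviral and inflammatory genes, and cnidarians such as corals carry members of both families. The compounds differ in a base, uracil in cUA and guanine in cGAMP, and in the linkage between the nucleotides. Families of similar genes often lie side by side because tandem duplication leaves the copies next to each other. Neighbours that face away from each other, here called head to head, have their start sites on the same intervening stretch of DNA.

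The models carried no product names. Of the 46 members, 25 could be matched by protein accession to a symbol in a later RefSeq gene table of the species. The version of the accession was the same for 9 of them. It was another version for 16, among them all matched members of clusters B, C and G. Each of the 25 symbols was a LOC number without a description. No function is given to any member for that reason. The sequences of the models were not used here, so near-identical copies within a cluster, which may share reads, could not be recognised. The annotation named the predictor Gnomon for 44 members and AUGUSTUS for 2, A1 and E4. Coordinates are those of the deposited annotation.

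Total counts ran from 22175801 to 41800393 per library. Libraries cUA 2A and control 1A, which is a seawater library, stood apart in the scaling for composition (TMM), with factors of 0.619 and 0.714, while no other library was below 0.862. In cUA 2A lay the highest cUA level of 27 of the 45 tested members, while 30.6% of all tested models had theirs there. The lowest cUA level of 24 members was in cUA 1A, against 11.7% of all models. Among the cGAMP libraries, 1C held the highest level of 25 members and 2A of 18, against 11.3% and 16.9% of all models. With cUA 2A and control 1A left out together, the 45 tested members were called higher with each compound, as were 7.71% of all models with cUA and 16.5% with cGAMP.

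The clusters were compact, as the map of the models shows. They spanned 16384 bases in cluster D and 68253 bases in cluster A, and each lay on a scaffold of its own. The median coding length was 1024.5 nucleotides over the 46 members and 1080 over all models. A single coding segment, that is a model without an annotated intron in its coding part, made up 17 members, or 37.0%, against 17.8% of all models. By strand order alone, 14 of 39 pairs of neighbouring members lay head to head (35.9%), against 25.2% of all neighbouring models counted in the same way. Among the 14 is the pair A5 and A6. There A6 lies inside the span of A5, so these models overlap and do not face away from each other. In 6 of the 39 pairs (15.4%) the head-to-head starts were within 1 kb of each other, against 7.7% of all neighbouring pairs.

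**Figure D1:**
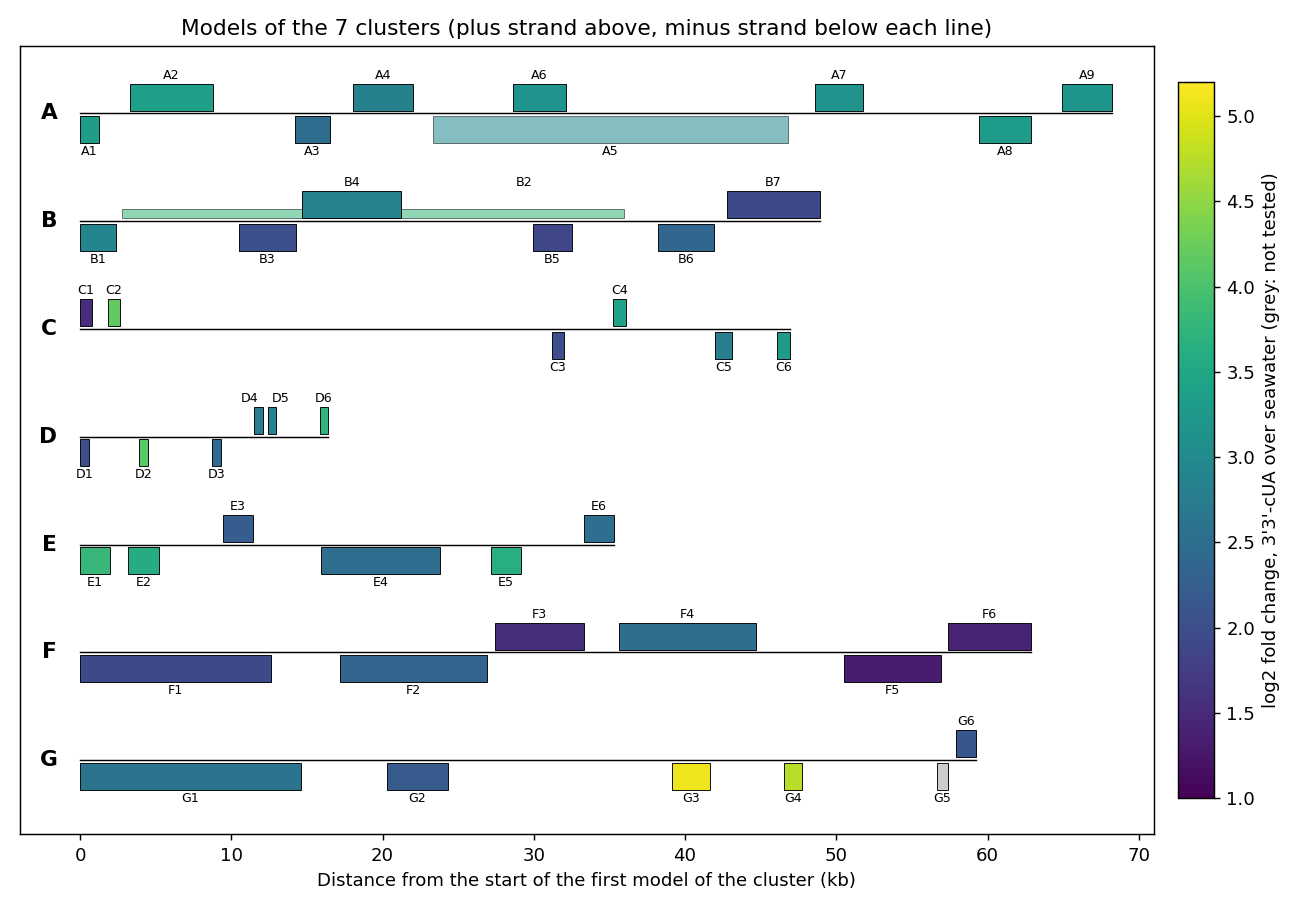
Map of the 7 clusters. Each box is a model drawn to scale from the start of its cluster in kb, above the line on the plus strand and below it on the minus strand, and its colour gives the log2 fold change of 3'3'-cUA over seawater. Thin or pale boxes are the long models B2 and A5, which span other members; grey marks G5, which was not tested. G3 and G4 have the highest fold changes, 5.10 and 4.75.

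Of the 46 members, 45 passed the filter on low counts and were tested among 21375 models, and 1, G5, did not pass. All 45 were called higher with cUA by edgeR's quasi-likelihood test at an adjusted p below 0.05, where 5.91% of all tested models were called. All 45 were also called with cGAMP, where 9.22% were called, and hence with both compounds, where 4.95% of models were. These counts follow from how the clusters were chosen. The log2 fold change over seawater had a median of 2.77 and ran from 1.33 in F5 to 5.10 in G3 with cUA, against a median of -0.02 over all models. With cGAMP it had a median of 3.15 and ran from 1.05 in F5 to 4.96 in G3, against -0.07 over all models. In RNA from whole colony pieces, more cells that carry a transcript and more transcript per cell cannot be told apart.

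For 39 of the 45 tested members every cUA library lay above every seawater library, as it did for 3.14% of all tested models. The exceptions were B5, C1, C3, F3, F4 and F5. Every cGAMP library lay above every seawater library for 39 members as well, against 5.56% of all models, and here the exceptions were B5, C1, F3, F5, F6 and G6. Per kilobase of coding sequence, the median level of the tested members was 42.0 CPM (counts per 1000000 of the scaled library size) with cUA, 51.4 with cGAMP and 7.20 in seawater. The median of all tested models was 6.78, 6.42 and 6.70 CPM per kb in the same groups. In seawater, 24 of the 45 members lay above the median of all models; with cUA 37 did and with cGAMP 38.

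**Figure D2:**
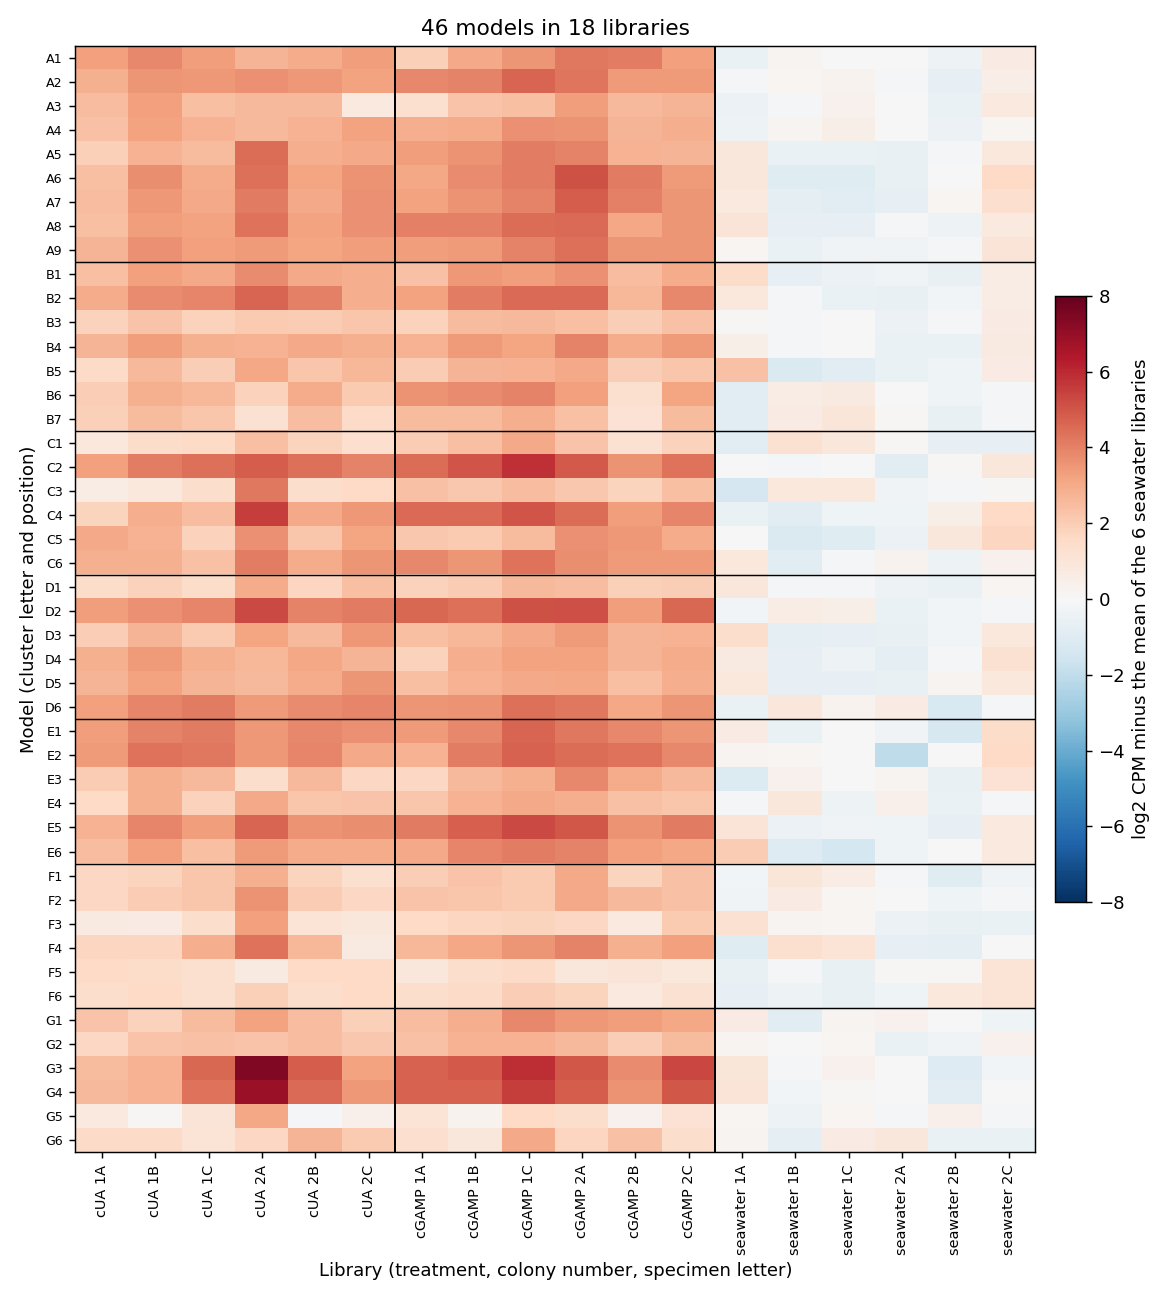
Levels of the 46 members in the 18 libraries, as log2 CPM minus the mean of the 6 seawater libraries of the same model. Rows are the models in scaffold order, with black lines between clusters, and columns are the cUA, cGAMP and seawater libraries. The darkest cells are G3 and G4 in cUA 2A, and G5, which was not tested, stays pale apart from cUA 2A.

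Cluster A was by far the most abundant. It held 9 models between 377407 and 445659 on scaffold NW_019217860.1, and their summed level was 4169 ± 1224 CPM with cUA, 5896 ± 2209 CPM with cGAMP and 464 ± 242 CPM in seawater (SD, n = 6 each). A plus-strand and a minus-strand model alternated along most of the cluster. The 5 plus-strand models A2, A4, A6, A7 and A9 were built alike, with 963 to 1131 coding nucleotides in 7 or 8 segments. Their 4 minus-strand neighbours A1, A3, A5 and A8 were shorter, with 534 to 684 coding nucleotides in 4 or 5 segments.

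The last model, A9 (Spis_XP_022785431_1, LOC111325804, plus strand, 442353 to 445659), had the highest level of the 46. Its lowest, median and highest libraries were at 1239, 1926 and 2401 CPM with cUA, at 1953, 2218 and 4164 CPM with cGAMP, and at 134, 169.9 and 385 CPM in seawater. No library with a compound came near the seawater range, and the log2 fold changes were 3.21 ± 0.29 with cUA and 3.67 ± 0.30 with cGAMP (SE). Expressed per kilobase, A9 stood at 1941 CPM with cUA, 2683 with cGAMP and 213 in seawater.

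Model A7 (Spis_XP_022785432_1, LOC111325805, plus strand, 425985 to 429175) came second. It had 559.7, 974 and 1797 CPM with cUA, 917, 1382 and 2857 CPM with cGAMP, and 55.4, 86.5 and 251 CPM in seawater as lowest, median and highest value. The groups with a compound did not overlap with seawater, whose 2 highest libraries were 2C and 1A. A6 (LOC111325803), which lies 16450 bases before A7 on the same strand and has 1065 coding nucleotides against 963, tracked it closely. The ratio of A6 to A7 in CPM, with no correction for length, stayed between 0.472 and 0.678 over the 18 libraries. A6 averaged 632 ± 306 CPM with cUA, 941 ± 507 with cGAMP and 70.3 ± 56.4 in seawater.

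A2 (Spis_XP_022785492_1, LOC111325841, plus strand, 380701 to 386205) had the widest gap between the compounds in this cluster. It had 130.3, 201 and 229 CPM with cUA, 187, 273 and 458 CPM with cGAMP, and 11.4, 18.3 and 25.7 CPM in seawater. On the log2 scale cUA minus cGAMP was -0.59, with an unadjusted 95% interval of -1.10 to -0.09 and an adjusted p of 0.512 in edgeR. A4, the plus-strand model with the longest coding part, averaged 105 ± 24.1 CPM with cUA, 131 ± 38.8 with cGAMP and 14.8 ± 3.84 in seawater.

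The minus-strand models of cluster A differed widely in level. A5 extends over 23421 bases of the scaffold and spans A6 on the other strand; it averaged 204 ± 148 CPM with cUA, 257 ± 99.2 with cGAMP and 25.2 ± 13.0 in seawater. Whether reads of A6 were counted for A5 was not examined, and the strand setting of the counting is not given in the sources used here. A8 averaged 73.1 ± 32.3, 107 ± 37.7 and 7.32 ± 4.0 CPM in the same order, A3 14.7 ± 6.55, 15.3 ± 6.55 and 2.66 ± 0.98 CPM, and A1, the model from AUGUSTUS, 13.5 ± 3.74, 15.7 ± 7.67 and 1.37 ± 0.43 CPM. Per kilobase, levels with cUA reached from 25.2 CPM in A1 to 1941 CPM in A9. Against that range the log2 fold changes of the 9 models were close to each other, 2.49 to 3.36 with cUA and 2.51 to 3.95 with cGAMP. The nearest models outside, 21059 bases before A1 and 10836 bases after A9, were a model at -1.26 with cUA and -0.72 with cGAMP on the log2 scale, neither called, and a model too low to test.

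Cluster B held 7 models between 96635 and 145526 on scaffold NW_019218118.1. Its summed level was 406 ± 62.1 CPM with cUA, 509 ± 125 with cGAMP and 78.5 ± 26.9 in seawater. The models faced away from each other in pairs, B1 from B2 at a distance of 424 bases, B3 from B4 at 415 and B6 from B7 at 850. In each pair the minus-strand model came first and had 1056 to 1347 coding nucleotides in 6 segments.

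B4 (Spis_XP_022799473_1, plus strand, 111343 to 117885) and its head-to-head partner B3 (Spis_XP_022799475_1, LOC111337446, minus strand, 107140 to 110927) had the highest mean CPM of the cluster. B4 had 123, 129 and 186 CPM with cUA, 124, 180.0 and 283 CPM with cGAMP, and 12.4, 17.7 and 29.8 CPM in seawater. B3 had 83.2, 97.5 and 113 CPM with cUA, 86.7, 122 and 145 CPM with cGAMP, and 17.4, 22.3 and 37.9 CPM in seawater. Neither overlapped between a compound and seawater, and the log2 fold changes were 2.86 and 3.26 for B4 against 2.00 and 2.28 for B3, with cUA and cGAMP in that order. B3 had among the smallest spreads of all members, with an SE of 0.19 for the cUA fold change.

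B6 (Spis_XP_022799476_1, LOC111337447, minus strand, 134877 to 138527) had the widest gap between the compounds in cluster B. It had 16.9, 24.8 and 36.5 CPM with cUA, 11.3, 51.4 and 73.5 CPM with cGAMP, and 2.43, 4.53 and 7.75 CPM in seawater. The lowest of the cGAMP values, in cGAMP 2B, lay below every cUA library, and the other 5 lay above every cUA library. Here cUA minus cGAMP was -0.86 on the log2 scale, with an unadjusted interval of -1.56 to -0.16 and an adjusted p of 0.486 in edgeR. B7 (LOC111337444), its head-to-head partner, was also lowest in cGAMP 2B and averaged 34.0 ± 11.1 CPM with cUA, 43.7 ± 13.8 with cGAMP and 9.06 ± 4.54 in seawater.

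B5 (LOC111337450) was the member of cluster B whose groups overlapped. It averaged 51.7 ± 19.7 CPM with cUA, 54.4 ± 16.6 with cGAMP and 14.3 ± 16.9 in seawater, where control 1A alone stood at 48.1 CPM. Without control 1A its log2 fold change was 2.86 with cUA and 3.00 with cGAMP, against 1.89 and 1.95 with all libraries. The cUA call of B5 was lost when cUA 1B, cUA 2A or any seawater library other than 1A was left out, with adjusted p-values of 0.0502 to 0.0782 in edgeR. B1 (LOC111337442) averaged 39.7 ± 12.6, 39.6 ± 13.7 and 5.28 ± 3.75 CPM with cUA, with cGAMP and in seawater. B2, whose annotated span covers B3, B4 and B5, averaged 17.7 ± 8.21, 19.3 ± 8.68 and 1.28 ± 0.56 CPM, and it had the highest log2 fold changes of the cluster, 3.79 and 3.93. Whether reads of B3, B4 or B5 were counted for B2, which is on the same strand as B4, was not examined. The neighbours outside the cluster, 5145 bases before B1 and 2572 bases after B7, were abundant, with 197 and 107 CPM with cUA, 214 and 157 with cGAMP and 153 and 80.2 in seawater, and neither was called with a compound.

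Cluster C held 6 models between 564953 and 611915 on scaffold NW_019217841.1, each with a single coding segment of 786 to 1143 nucleotides. The summed level was 461 ± 309 CPM with cUA, 673 ± 289 with cGAMP and 42.6 ± 17.2 in seawater. An interval of 28579 bases separates C1 and C2 from the other 4 models.

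C2 (Spis_XP_022783496_1, LOC111324251, plus strand, 566807 to 567592) was the most abundant. It had 126, 249 and 372 CPM with cUA, 154, 342 and 749 CPM with cGAMP, and 6.96, 12.9 and 24.2 CPM in seawater. The groups lay far apart, with log2 fold changes of 4.17 ± 0.40 with cUA and 4.78 ± 0.41 with cGAMP. C1, only 1053 bases before it on the same strand, averaged 6.23 ± 2.35 CPM with cUA, 9.53 ± 4.08 with cGAMP and 2.31 ± 1.51 in seawater. Side by side, C1 and C2 thus differed strongly both in level and in fold change, which for C1 was 1.53 with cUA and 2.06 with cGAMP on the log2 scale. The cUA call of C1 was lost without seawater 2B and with total counts in place of TMM (adjusted p = 0.0574 and 0.059 in edgeR). With limma-voom it was lost as well, at a log2 fold change of 0.74 and an adjusted p of 0.0776.

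C4 (Spis_XP_022783442_1, LOC111324215, plus strand, 600197 to 601024) had the widest gap between the compounds of all 45 tested members. It had 34.6, 79.2 and 471 CPM with cUA, 103, 229.8 and 335 CPM with cGAMP, and 5.62, 7.87 and 30.7 CPM in seawater. The highest cUA value came from cUA 2A, which held 56.6% of the summed CPM of the cUA libraries, and the other 5 cUA libraries reached at most 112 CPM. The log2 difference of cUA and cGAMP was -1.03, with an unadjusted interval of -2.18 to 0.13 and an adjusted p of 0.631 in edgeR. Without cUA 2A it was -1.65, with an adjusted p of 0.0904, and without cUA 2A and control 1A it was -1.64, with an adjusted p of 0.047. The log2 fold change of C4 with cUA was 2.66 without cUA 2A, against 3.42 with it.

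C3 (LOC111324213) leaned on the same library. It had 15.6, 26.7 and 189 CPM with cUA, of which cUA 2A held 61.6% of the summed CPM. Its mean was 47.9 ± 8.27 CPM with cGAMP and 11.5 ± 5.77 CPM in seawater, and its log2 fold change with cUA was 1.05 without cUA 2A, against 1.99 with it. Its cUA call was lost without seawater 2A, 2B or 2C, with adjusted p-values of 0.0683 to 0.0938 in edgeR. With the specimen number as a replicate block the call was lost too, at a log2 fold change of 1.68 and an adjusted p of 0.058, and with limma-voom at 0.69 and an adjusted p of 0.0712. The log2 difference of cUA and cGAMP was -0.05 with all libraries and -1.03 without cUA 2A, with an adjusted p of 0.996 and of 0.138. Without cUA 2A and control 1A the adjusted p was 0.029. C5 (LOC111324216) averaged 14.8 ± 6.59, 15.0 ± 6.98 and 2.52 ± 2.17 CPM with cUA, with cGAMP and in seawater, and C6 4.11 ± 1.96, 5.95 ± 1.68 and 0.42 ± 0.19 CPM. The neighbours outside, 1243 bases before C1 and 1261 bases after C6, had negative log2 fold changes of -0.23 and -0.29 with cUA and -0.39 and -1.5 with cGAMP, and neither was called.

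Cluster D was the tightest, with 6 models between 275603 and 291986 on scaffold NW_019217936.1. All 6 had a single coding segment, of 519 to 585 nucleotides, and 3 minus-strand models were followed by 3 plus-strand ones. The summed level was 511 ± 159.9 CPM with cUA, 552 ± 139.8 with cGAMP and 80.6 ± 45.3 in seawater.

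D3 (Spis_XP_022791093_1, LOC111330492, minus strand, 284343 to 284891) was the most abundant. It had 154, 247 and 429.6 CPM with cUA, 209 (the lowest), 263 and 426 CPM with cGAMP, and 22.7, 30.2 and 106 CPM in seawater. Control 1A was the highest seawater library, and it still lay below every library with a compound. The log2 fold changes were 2.45 ± 0.39 with cUA and 2.59 ± 0.39 with cGAMP.

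D2 (Spis_XP_022791098_1, LOC111330496, minus strand, 279515 to 280096), which lies next to D3 and is 582 coding nucleotides long against 549, had the larger response. It had 40.1, 60.6 and 155 CPM with cUA, 41.3, 97.2 and 142 CPM with cGAMP, and 2.69, 3.55 and 6.07 CPM in seawater. These correspond to log2 fold changes of 4.13 ± 0.38 with cUA and 4.59 ± 0.38 with cGAMP, the highest of the cluster. Between the compounds D2 differed by -0.46 (cUA minus cGAMP, log2), with an interval of -1.17 to 0.24 and an adjusted p of 0.756 in edgeR.

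The plus-strand neighbours D4 (LOC111330525) and D5 (LOC111330526), 331 bases apart, were alike in level. D4 averaged 55.2 ± 11.6, 52.3 ± 15.2 and 8.17 ± 4.91 CPM with cUA, with cGAMP and in seawater, and D5 58.4 ± 15.6, 51.0 ± 10.4 and 8.13 ± 4.13 CPM. D1 averaged 49.4 ± 23.7, 51.9 ± 11.6 and 12.2 ± 4.95 CPM, with log2 fold changes of 1.99 and 2.08. D6 (LOC111330504) was the lowest, at 6.87 ± 1.5, 7.08 ± 2.49 and 0.51 ± 0.28 CPM, with log2 fold changes of 3.73 and 3.77. Both neighbours outside cluster D were too low to test.

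Cluster E held 6 models between 188670 and 223978 on scaffold NW_019217968.1. Apart from E4, the model from AUGUSTUS with 3006 coding nucleotides, they were of nearly the same length, 1941 to 2001 coding nucleotides in 1 or 2 segments. Their levels were not alike. The summed level of 299 ± 109 CPM with cUA, 500.1 ± 187.6 with cGAMP and 32.9 ± 22.9 in seawater came almost wholly from E5 and E6.

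E5 (Spis_XP_022793029_1, LOC111332042, minus strand, 215852 to 217834) had 100.1, 184 and 360 CPM with cUA, 177, 325 and 555 CPM with cGAMP, and 9.28, 11.5 and 28.8 CPM in seawater. Its log2 fold changes were 3.64 ± 0.40 with cUA and 4.44 ± 0.42 with cGAMP. The difference between the compounds was -0.80 on the log2 scale, with an unadjusted interval of -1.57 to -0.03 and an adjusted p of 0.572 in edgeR. E6 (Spis_XP_022793102_1, LOC111332098, plus strand, 222011 to 223978) had 55.4, 82.9 and 114 CPM with cUA, 86.2, 132 and 180.3 CPM with cGAMP, and 3.93, 9.30 and 43.5 CPM in seawater. The highest seawater value was that of control 1A. Without that library the log2 fold change of E6 was 3.29 with cUA and 4.02 with cGAMP, against 2.5 and 3.15 with it.

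The other 4 models of cluster E had less than 10 CPM on average in every group. E2 averaged 7.49 ± 2.62, 9.56 ± 3.67 and 0.62 ± 0.49 CPM with cUA, with cGAMP and in seawater, E3 (LOC111332044) 4.45 ± 1.75, 6.89 ± 3.56 and 0.98 ± 0.57 CPM, and E1 3.10 ± 0.68, 3.60 ± 1.28 and 0.22 ± 0.19 CPM. E4 was at 1.59 ± 0.64, 1.87 ± 0.49 and 0.28 ± 0.14 CPM and had the lowest level per kilobase of the tested members, 0.529 CPM with cUA, 0.621 with cGAMP and 0.0920 in seawater. Even so, each compound library of these 4 models lay above every seawater library. E1 rests on 44 counts and E4 on 58 over the 6 seawater libraries. For E1, 18 of the 44 were in control 2C, and without that library its log2 fold change was 4.42 with cUA and 4.65 with cGAMP, against 3.81 and 4.03 with it. For E2 the cGAMP value was 4.52 without control 2C, against 3.93 with it. The neighbours outside, 5439 bases before E1 and 1902 bases after E6, were not called, with log2 fold changes of 0.06 and 0.45 with cUA and of 0.47 and 0.72 with cGAMP.

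Cluster F held 6 models between 27733 and 90576 on scaffold NW_019218225.1 and had the smallest fold changes. The summed level was 143 ± 90.2 CPM with cUA, 146 ± 31.1 with cGAMP and 47.4 ± 10.4 in seawater. Its 3 plus-strand models F3, F4 and F6 were alike in build, with 1785 to 1830 coding nucleotides in 5 segments each. The minus-strand models F1, F2 and F5 had 537 to 1410 coding nucleotides in 6 to 9 segments. F2 and F3 lay head to head at 581 bases, and F5 and F6 at 442.

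F3 (Spis_XP_022802774_1, plus strand, 55197 to 61050) had 33.2, 42.1 and 203 CPM with cUA, 35.9, 68.8 and 89.4 CPM with cGAMP, and 14.2, 19.3 and 49.0 CPM in seawater. Only 2 of its 6 cUA libraries lay above all seawater libraries, since control 1A was at 49.0 CPM, and cUA 2A held 49.4% of the summed CPM of the cUA libraries. The log2 fold change was 1.54 ± 0.47 with cUA and 1.51 ± 0.45 with cGAMP. Without cUA 2A the cUA value was 0.86, and the model was then no longer called (adjusted p = 0.0657 in edgeR). The cUA call was lost in 11 of the 18 fits that left out 1 library, namely cUA 1C and 2A, every cGAMP library of colony 1, cGAMP 2A, and every seawater library other than 1A. The highest adjusted p was 0.122, without seawater 2A. It was lost too with the replicate block, where it had 1.35 on the log2 scale (adjusted p = 0.0738), and, in edgeR, under no filter and under a filter of 1 CPM in 6 libraries (adjusted p = 0.0517 and 0.0509). The cGAMP call was lost without seawater 2A, 2B or 2C, with adjusted p-values of 0.0572 to 0.0608.

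F6 (Spis_XP_022802754_1, plus strand, 85119 to 90576) had 34.5, 39.1 and 52.2 CPM with cUA, 24.3, 38.6 and 53.8 CPM with cGAMP, and 8.97, 10.7 and 30.4 CPM in seawater. Seawater 2B and 2C were the high ones, and only cGAMP 2B fell below them. F4 (Spis_XP_022802749_1, plus strand, 63345 to 72444) had 3.34, 9.89 and 41.0 CPM with cUA, 13.1, 18.6 and 32.4 CPM with cGAMP, and 0.997, 1.63 and 4.92 CPM in seawater. Its log2 fold changes were the highest of the cluster, 2.52 ± 0.58 with cUA and 3.01 ± 0.58 with cGAMP, and without cUA 2A the cUA value was 1.90. The difference between the compounds in F4 was -0.49, with an interval of -1.61 to 0.62 and an adjusted p of 0.875 in edgeR.

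F1 averaged 8.85 ± 3.66, 10.7 ± 3.63 and 2.36 ± 1.14 CPM with cUA, with cGAMP and in seawater, F5 5.88 ± 1.24, 4.84 ± 1.01 and 2.39 ± 1.25 CPM, and F2 4.27 ± 2.81, 4.51 ± 1.18 and 0.81 ± 0.26 CPM. F5 had the smallest fold changes of all tested members, and with total counts in place of TMM neither of its calls held (adjusted p = 0.0525 with cUA and 0.138 with cGAMP in edgeR). Outside the cluster, the model 8319 bases before F1 (Spis_XP_022802771_1) averaged 1.88 CPM with cUA, 2.33 with cGAMP and 0.851 in seawater. It was the sole neighbour outside any cluster that was called with a compound, with a log2 fold change of 1.44 ± 0.41 with cGAMP (adjusted p = 0.0166 in edgeR) and 1.13 with cUA (adjusted p = 0.0872). The model 704 bases after F6 was not called, at 0.87 with cUA and 0.83 with cGAMP on the log2 scale.

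Cluster G held 6 models between 61786 and 120994 on scaffold NW_019218191.1, of which 5 were on the minus strand. The summed level was 339 ± 354 CPM with cUA, 334 ± 107 with cGAMP and 30.2 ± 6.84 in seawater. It held both the largest and some of the most uncertain fold changes.

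G3 (Spis_XP_022801879_1, minus strand, 100933 to 103467) and G4 (Spis_XP_022801880_1, minus strand, 108351 to 109484) moved together. G4 had 22.0, 56.5 and 439 CPM with cUA, 44.0, 101 and 171 CPM with cGAMP, and 1.99, 3.44 and 7.38 CPM in seawater. G3 had 16.6, 48.1 and 496 CPM with cUA, 38.7, 89.1 and 172 CPM with cGAMP, and 1.37, 2.73 and 5.54 CPM in seawater. The ratio of G3 to G4 in CPM, with no correction for length, stayed between 0.654 and 1.13 over the 18 libraries, while the level of G3 itself reached from 1.37 to 496 CPM.

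Their log2 fold changes were 5.10 ± 0.84 for G3 and 4.75 ± 0.72 for G4 with cUA, and 4.96 ± 0.80 and 4.75 ± 0.70 with cGAMP. Library cUA 2A held 69.6% of the summed cUA CPM of G3 and 64.1% of that of G4. Without it the cUA fold changes were 3.85 and 3.69, and the log2 differences of cUA and cGAMP were -1.15 and -1.08 (adjusted p = 0.254 and 0.219 in edgeR), against 0.14 and -0.00 with all libraries.

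G2 (Spis_XP_022801876_1, LOC111339473, minus strand, 82067 to 86118) varied little within a group. It had 70.6, 108 and 122 CPM with cUA, 88.4, 133 and 155 CPM with cGAMP, and 15.8, 23.9 and 28.8 CPM in seawater. The log2 fold changes were 2.19 ± 0.19 and 2.5 ± 0.19, among the most precise of all members. G1 (Spis_XP_022801875_1, LOC111339472, minus strand, 61786 to 76372) is of nearly the same coding length, 1665 against 1698 nucleotides, and was much lower. G1 had 0.951, 1.40 and 2.56 CPM with cUA, 1.44, 2.59 and 3.95 CPM with cGAMP, and 0.106, 0.255 and 0.359 CPM in seawater. For G1 the log2 value of cUA minus cGAMP was -0.82, with an unadjusted interval of -1.52 to -0.13 and an adjusted p of 0.508 in edgeR.

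G5 (Spis_XP_022801881_1, minus strand, 118416 to 119174) had 15 counts over the 6 cUA libraries, 9 over the cGAMP libraries and 3 over the seawater libraries, and was not tested. Its highest library was at 0.490 CPM with cUA, at 0.129 with cGAMP and at 0.0390 in seawater, and the lowest of each group was at 0, so that the groups overlapped at 0. G6, 503 bases away and head to head with it, averaged 0.42 ± 0.21, 0.45 ± 0.32 and 0.090 ± 0.076 CPM with cUA, with cGAMP and in seawater, from 75, 63 and 20 counts. Its cUA call was lost without cUA 2B or without seawater 1B, 2B or 2C, with adjusted p-values of 0.0521 to 0.0582 in edgeR. Both neighbours outside cluster G were too low to test.

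**Figure D3:**
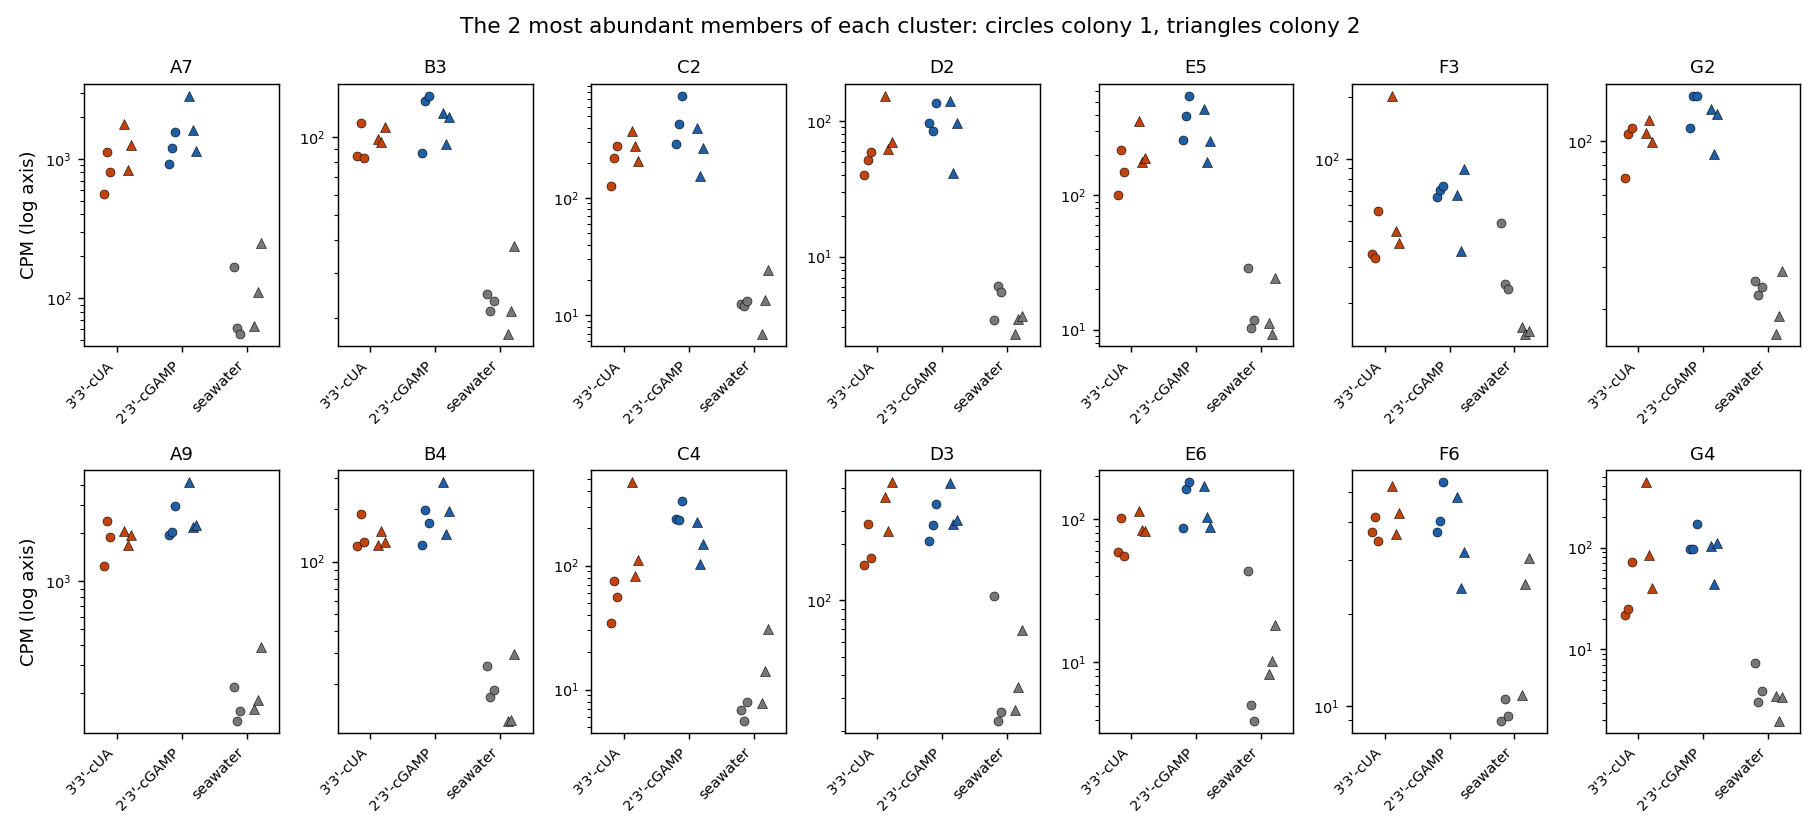
Levels of the 2 members with the highest mean CPM in each cluster, a column per cluster, in CPM on log axes that differ between panels. Each point is a library, a circle for colony 1 and a triangle for colony 2, and the groups run from 3'3'-cUA over 2'3'-cGAMP to seawater. In A9 the libraries with a compound lie at 1239 CPM or more and those in seawater at 385 CPM or less, while in F3 the groups overlap.

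Of the 14 nearest models outside the clusters, 9 were tested. The other 5, both neighbours of clusters D and G and the one after A9, were too low, so those borders were not seen. None was called with cUA and 1 was called with cGAMP by edgeR, against 3 with cUA and 4 with cGAMP at an unadjusted p below 0.05. Their log2 fold changes lay between -1.26 and 1.13 with cUA and between -1.5 and 1.44 with cGAMP. Since the spans were chosen on these same values, they describe the border and do not test it.

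**Figure D4:**
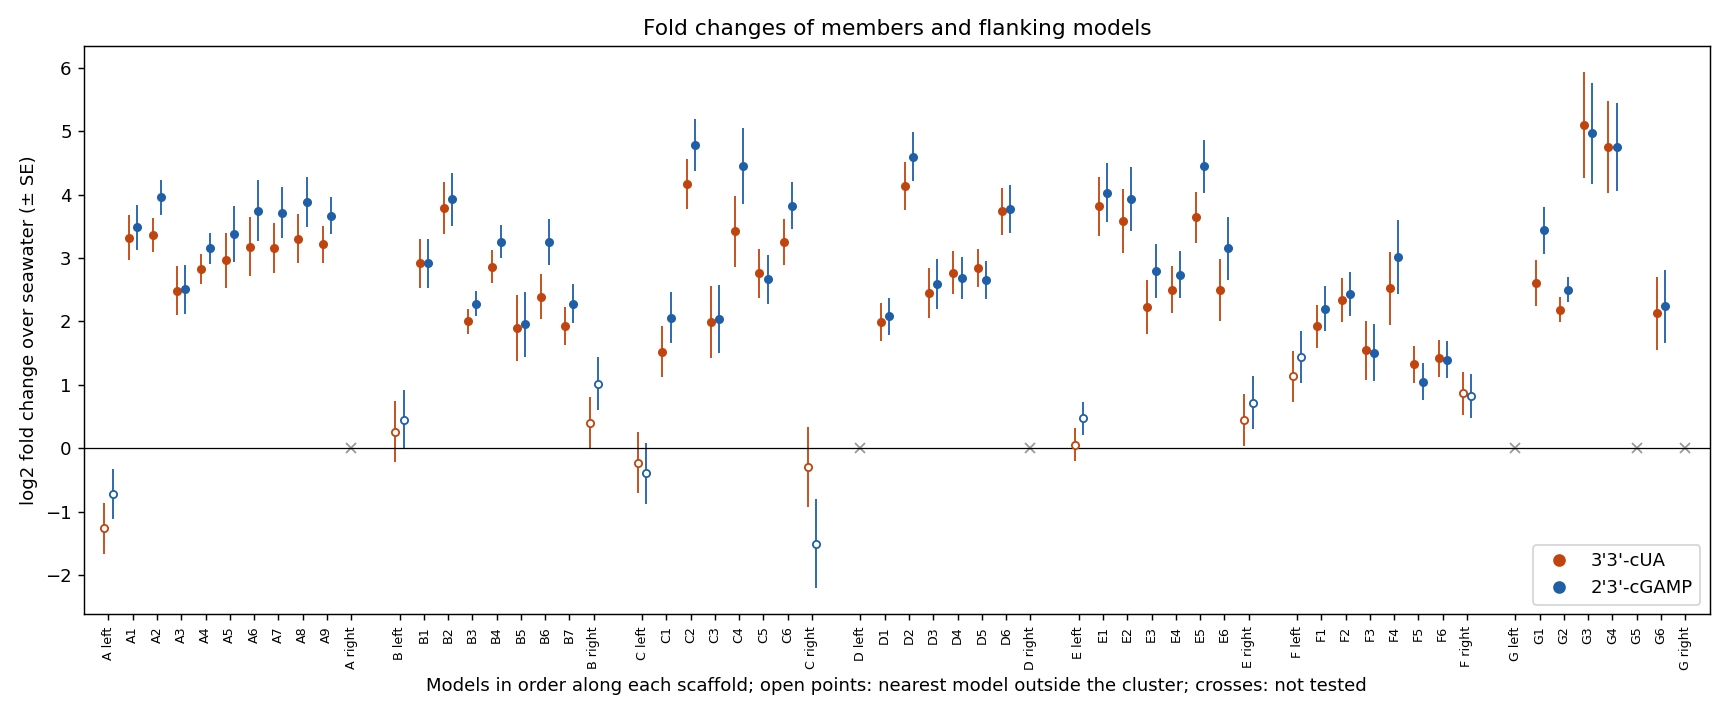
Log2 fold changes over seawater with SE bars for each member in scaffold order, with the nearest model outside each end of a cluster as open points. Orange is 3'3'-cUA and blue is 2'3'-cGAMP. Members lie at 1.05 or above, while the open points lie between -1.5 and 1.44.

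The neighbourhoods could be followed, by symbol alone, in a later assembly of the species, jaStyPist1.2. In each cluster with matched symbols these lay on a single chromosome of that assembly. The 5 matched members of cluster D took up 5 consecutive coding genes and the 3 of cluster E 3 consecutive ones. Those of cluster A fell within 9 coding genes, those of cluster B also within 9, and those of cluster C within 25. The 2 matched members of cluster G were next to each other, and no member of cluster F was matched.

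Both compounds had been given at 250 µM for 18 h, which allowed a direct test in the 45 members. No member was called between cUA and cGAMP by edgeR (lowest adjusted p 0.486), nor was any of the 21375 tested models (0%). At an unadjusted p below 0.05, 4 members differed, A2, B6, E5 and G1, against 8.56% of all tested models. With limma-voom and sample weights 11 members were called, all of them lower with cUA, against 13.4% of all models in that fit. DESeq2 called 0 members. For DESeq2 no share over all models is given, here or below, so its 0 is a bare count. C3 had no adjusted p in DESeq2 against seawater with either compound. The log2 difference of cUA and cGAMP had a median of -0.28 over the members, against 0.05 over all models, and was below 0 in 37 of 45 members, while 56.2% of all models had it above 0. In cluster A it was below 0 in all 9 members, with values of -0.59 to -0.02.

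The direct differences were bounded for some members and not for others. In 21 of the 45 members the unadjusted 95% interval lay wholly within 1 log2 unit of 0. A doubling or halving between the compounds lay outside those intervals. The same count was not made over all models, so it describes the members alone. The widest intervals reached -2.18 in C4 and 1.65 in G3. Without cUA 2A the median difference was -0.43, with 40 members below 0 and 16 at an unadjusted p below 0.05, against 14.8% of all models, and none was called. Without cUA 2A and control 1A, C3 and C4 were called, both lower with cUA, against 3.36% of all models, and 18 members had an unadjusted p below 0.05, against 20.6% of all models.

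**Figure D5:**
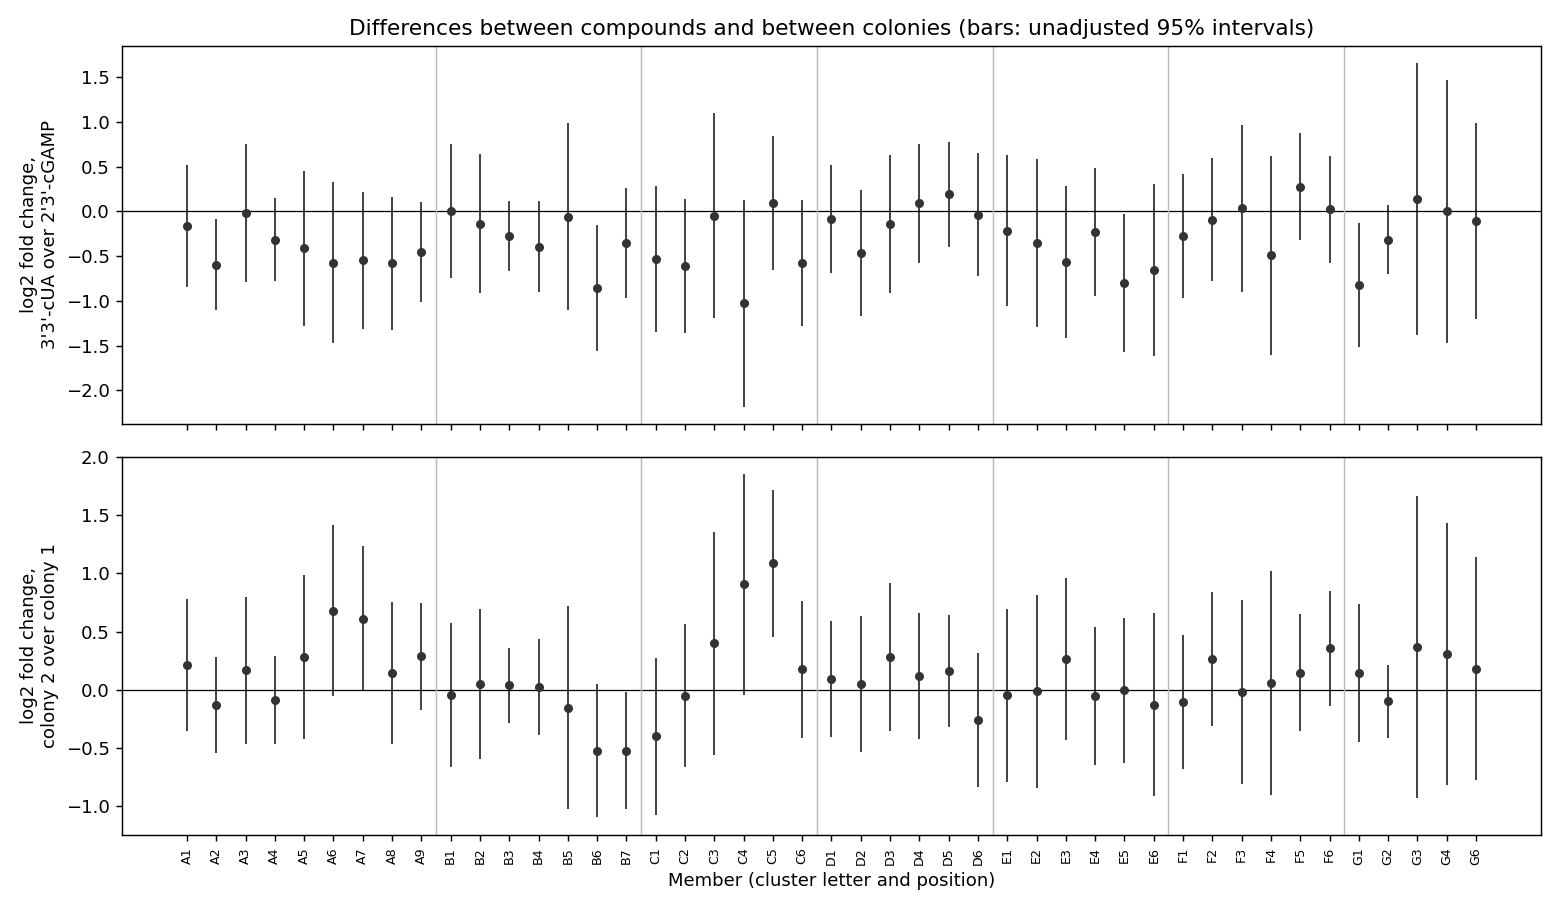
Log2 differences of 3'3'-cUA and 2'3'-cGAMP (upper panel) and of colony 2 and colony 1 (lower panel) for the 45 tested members, with unadjusted 95% intervals from edgeR. In the upper panel 37 points lie below 0, and the widest intervals reach -2.18 and 1.65. In the lower panel C5 stands highest at 1.09.

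Between colony 2 and colony 1, over all treatments, no member was called by edgeR (lowest adjusted p 0.576), and none of all tested models was (0%). At an unadjusted p below 0.05 there were 2 members, C5, higher in colony 2 by 1.09 ± 0.30 on the log2 scale, and B7, at -0.52 ± 0.24, against 8.29% of all models. DESeq2 called 0 members and limma-voom 6, against 21.3% of all models in limma-voom. C5 had 25.3, 9.05 and 17.8 CPM in colony 2 and 16.3, 13.6 and 6.91 in colony 1 with cUA. With cGAMP it had 25.1, 21.4 and 15.4 CPM in colony 2 and 8.57, 8.20 and 11.5 in colony 1, and in seawater 1.39, 3.65 and 6.43 in colony 2 and 1.83, 0.852 and 0.954 in colony 1. The colonies overlapped with cUA and in seawater but not with cGAMP.

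The responses in each colony were set side by side by cluster. With cUA, the median log2 fold change of the members was 3.15 in colony 2 and 3.13 in colony 1 for cluster A, 2.70 and 2.23 for B, 3.38 and 2.89 for C, 2.90 and 2.96 for D, 3.02 and 2.98 for E, 2.62 and 1.65 for F, and 2.89 and 2.34 for G. With cGAMP the same medians were 3.67 and 3.70 for A, 2.97 and 2.71 for B, 2.81 and 3.50 for C, 2.75 and 2.74 for D, 3.53 and 3.54 for E, 2.5 and 1.88 for F, and 3.60 and 3.29 for G. Every tested member had a positive fold change in each colony with each compound. This is a description, since the choice of the members on these same libraries favours it.

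The test of the interaction, that is of the response in colony 2 minus that in colony 1, called no member with cUA (lowest adjusted p 0.344 in edgeR) and none with cGAMP (lowest 0.884). Among all tested models 0% were called with either compound. At an unadjusted p below 0.05 there were 10 members with cUA, against 12% of all models, and 3 with cGAMP, against 5.24%. DESeq2 called 0 members over both compounds and limma-voom 3, against 5.45% of all models in limma-voom. Of the 10, 8 had the larger response in colony 2, namely C1, C3, D1, D2, F3, F4, G3 and G4, and F5 and F6 the smaller one. The median interaction of the members with cUA was 0.54 with TMM scaling, against 0.06 over all models, and -0.10 with total counts alone, against -0.43, so its sign depends on the scaling. With TMM but without control 1A and cUA 2A it was -0.11 with cUA, with 26 of 45 members below 0, against 0.04 over all models. With cGAMP it was -0.25 without those libraries, against 0.06 over all models. With all libraries the cGAMP median was 0.12, the same as over all models. Leaving out both libraries together thus also turned the sign. Without cUA 2A alone it did not turn: the medians were 0.41 with cUA and 0.13 with cGAMP, against 0.10 and 0.14 over all models.

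In cluster F the interaction changed sign along the scaffold. The interaction with cUA was 2.35 for F3 and 2.21 for F4, and it was -1.10 for F5 and -0.98 for F6; with cGAMP the values were 1.01, 1.53, -1.34 and -1.53. In G3 and G4 it was 3.30 and 2.92 with cUA and 0.35 and 0.20 with cGAMP. None of these passed the adjustment. Without cUA 2A, the cUA values were 1.2, 0.98, -0.84 and -1.10 in F3 to F6 and 1.45 and 1.37 in G3 and G4. Without control 1A as well they were 0.74, 1.41, -0.77 and -1.07 in F3 to F6 and 1.09 and 0.89 in G3 and G4. The number of members at an unadjusted p below 0.05 was 3 without cUA 2A alone, against 6.43% of all models.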

How the data were processed

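RNA of 18 specimens was sequenced. The deposited table holds whole-number read counts per gene model, without normalization. The submitters' processing notes name STAR, featureCounts and DESeq2. For versions, roles, strandedness and multi-mapping reads the entry is: not given in the sources used here. Positions and segments come from the annotation that the authors deposited, and the genome build is not stated there. Symbols and gene order were looked up in a later RefSeq table of assembly jaStyPist1.2, from which no coordinates were taken.

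Columns were matched to samples by their titles. Tests on these counts were edgeR's (4.0.16, R 4.3.3), by robust quasi-likelihood fits, TMM scaling and filterByExpr over the 6 groups of treatment and colony, which kept 21375 of 29419 models; 873 models had no count. The model held treatment and colony, with 14 residual degrees of freedom. The interaction used the 6 group means, with 12. P-values were adjusted by the Benjamini-Hochberg method over all tested models, and a call is an adjusted p below 0.05. The biological coefficient of variation was 0.464. CPM were computed on TMM-scaled library sizes, with a prior count of 2 for log2 values, and intervals of fold changes are at 95%. Each SE of a fold change was derived from that fold change and the F statistic of its quasi-likelihood test, and each interval from that SE. The scripts were tested on simulated data. No pair of libraries of a group was alike within sampling noise: chi-square over its degrees of freedom was 19.9 or more.

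Alternatives were DESeq2 1.42.0, limma-voom 3.58.1 with sample weights, other scalings and filters, a replicate block, no colony term, each colony alone, and leaving out each library, or control 1A and cUA 2A together. Lowest, median and highest library are given for the 2 most abundant members of each cluster, the member with the largest absolute difference between the compounds, and any member called in that, the colony or the interaction test, not called with both compounds, or not tested. Other members have means, or values where a library or a test singled them out. The nearest model outside each end served as the neighbour. The members, lists and alternatives were chosen with earlier results of these data known. Lists of immune genes and cell markers, and promoter motifs, needed descriptions and sequences that were not used here, so the tissue label could not be checked against markers.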

Additional observations from a re-analysis of the deposited data

Results flagged for a closer look

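For each of the 46 members, the 6 libraries of each treatment were checked for a lowest or highest library whose gap to its nearest neighbour, on the log2 CPM scale, exceeded 0.625 of the range. That occurred in 9 of 138 groups, or 6.52%, where chance gives about 1 in 20. Of the 9, 4 were in cUA 2A, 3 in cGAMP 2B, 1 in cUA 2C and 1 in cGAMP 1A.

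Library cUA 2A stood above the other 5 cUA libraries in 4 models. C3 was at 189 CPM there, against 15.6 to 30.1 CPM in the others. F3 was at 203 CPM, against 33.2 to 55.7 CPM, and F2 at 9.91 CPM, against 2.53 to 3.84 CPM. The untested G5 was at 0.490 CPM, against 0 to 0.0861 CPM.

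Library cGAMP 2B stood below the other cGAMP libraries in 3 models. B6 was at 11.3 CPM there, against 42.6 to 73.5 CPM, its partner B7 at 18.6 CPM, against 41.7 to 60.6 CPM, and F3 at 35.9 CPM, against 65.1 to 89.4 CPM. A3 was at 4.39 CPM in cUA 2C, against 13.5 to 25.0 CPM in the other cUA libraries. D4 was at 25.2 CPM in cGAMP 1A, against 47.3 to 66.3 CPM in the other cGAMP libraries.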

How the results depend on the processing

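The members called higher numbered 45 of 45 with each compound. Over the alternatives that kept both colonies and all libraries, cUA gave 43 to 45 and cGAMP 44 or 45. Some of the lower counts include absent tests. C3 had no adjusted p in DESeq2, and G6 had none under the filter of 1 CPM in 6 libraries. With 1 library left out the counts were 40 to 45 with cUA, where 3.85% to 9.07% of all models were called, and 44 to 45 with cGAMP, where 7.14% to 13.5% were. With colony 1 alone there were 33 with cUA and 41 with cGAMP, against 2.27% and 5.73% of all models, and with colony 2 alone 37 and 40, against 1.93% and 2.6%, each from 3 libraries a group. Both calls were lost with colony 1 alone in B5, E6, F3 and G6, and with colony 2 alone in F3, F5, F6 and G6. With colony 2 alone and cGAMP, F5 stood at 0.40 and F6 at 0.65 on the log2 scale (adjusted p = 0.645 and 0.406 in edgeR). Over 29 settings, 27 members kept both calls throughout, and no fold change changed sign. The members had been chosen on these calls, so their persistence follows in part from the choice and is a description. For the alternatives that kept both colonies and all libraries, the replicate block among them, these calls are given without a share over all models. With the replicate block, 43 were called with cUA, C3 and F3 being lost, 45 with cGAMP and 0 between the compounds. Between treatments, libraries of a colony with the same specimen letter had correlations of residuals of -0.447 to 0.381. Libraries with different letters were not compared in this way, so whether the letters pair the libraries was not settled.

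Calls between cUA and cGAMP, 0 in edgeR, were 11 with limma-voom and 2 without control 1A and cUA 2A. Between the colonies limma-voom gave 6 and for the interaction 3, against 0 in edgeR. For these 3 comparisons each fit without 1 library gave 0 calls among the members. Over all models these fits called at most 0.206% between the compounds, 1.25% between the colonies and 0.422% for the interaction. The cause of the differences between settings was not tested. With cGAMP, scaling moved the all-model median of log2 fold changes to -0.24 with total counts and -0.17 with upper quartile factors, against -0.07 with TMM; the members' medians were then 2.93 and 3.04, against 3.15. The fewest seawater counts were the 3 of G5, 20 of G6, 44 of E1, 49 of G1 and 58 of E4.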
